A study of Arabidopsis thaliana with 12 samples.

Results

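The 10 loci described here make, sense or relay gibberellin in Arabidopsis thaliana. They were taken by locus identifier and are the DELLA repressors RGA, GAI, RGL1, RGL2 and RGL3, the synthesis enzymes GA20OX1, GA3OX1 and GA3OX2, and the receptors GID1A and GID1B. All 10 were among the 28775 loci counted, and their positions below are those of RefSeq's TAIR10.1 annotation. Transcripts were followed in root meristems of seedlings with the label genotype Col-0 that carried pRPS5A-DOF2.1-GR, a construct that puts a fusion of the transcription factor DOF2.1 and the steroid-binding part of the glucocorticoid receptor under the RPS5A promoter, known for its activity in meristems. The steroid dexamethasone (DEX) lets such a fusion protein enter the nucleus. All seedlings, the controls included, carried this construct and had grown for 5 days at 22 °C on diluted MS medium. The groups were DEX at 10 µM for 1 h, 2 h or 4 h and a control at 1 h, each with 3 biological repeats of 300 root tips. Controls at 2 h and 4 h and DEX-treated seedlings without the construct were not analysed here, so that the action of DEX itself and of the activated fusion protein cannot be told apart at any time, nor time on DEX and time after transfer at 2 h and 4 h.

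Gibberellins are diterpenoid hormones that promote growth. GA20-oxidases and then GA3-oxidases carry out the last steps that give bioactive gibberellin. The hormone binds GID1 receptors, the bound receptor holds DELLA proteins, and the F-box protein SLY1 then marks DELLA proteins for destruction. DELLA proteins are nuclear regulators of the GRAS family that restrain growth, and in the root gibberellin is known to act on meristem size and cell elongation, in large part through the endodermis. Transcripts of several GA20-oxidases, GA3-oxidases and GID1 receptors are known to rise when gibberellin signalling is low.

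Library totals ran from 14142082 to 17522834 counts. Of the 10 members 9 passed the filter on low counts and were tested, and GA20OX1, with 1 to 13 counts in each library, did not pass. Every member had whole counts in all 12 libraries, and no annotated gene overlapped any of them. DEX 1 h replicates 1 and 3 differed most among replicates, with a chi-square of 19.81 per locus against 3.08 to 8.55 for the other pairs. All 6 markers of root meristem and stem cell niche (PLT1, PLT2, WOX5, SCR, SHR and CYCB1;1) had counts in every group. Their summed normalized CPM, that is, the count scaled to the TMM-adjusted library total, ranged over 172.9 to 190.2 among control libraries, with ranges of 139.1 to 149.0 for DEX 1 h, 149.0 to 157.2 for DEX 2 h and 126.7 to 148.5 for DEX 4 h, so each DEX sum was below each control sum. The markers did not all move alike: 3 of 6 were called lower at 1 h, and 4 lower and 1 higher at both later times. SCR had the largest part in the sum, at 65.6 ± 3.33 CPM (SD, n = 3) in the control and 39.1 ± 3.82 at 4 h. SCR and PLT1 were called lower at every time, SHR at 2 h and 4 h, and PLT2 only at 1 h. CYCB1;1 was called higher at 2 h and 4 h (log2 0.33 and 0.43, edgeR adjusted p 0.0327 and 0.00421). WOX5, small in the sum, had the largest change of the 6 at both later times. Its log2 fold change was -1.57 at 2 h (edgeR adjusted p 0.000160) and -2.27 at 4 h (4.14e-06). Mean WOX5 levels were 5.32 CPM in the control, 4.20 at 1 h (not called), 1.78 at 2 h and 1.09 at 4 h. The 3 root cap markers gave sums of 57.6 to 62.9, 41.7 to 50.9, 40.7 to 49.5 and 59.1 to 62.7 CPM in the same order. The 5 markers of differentiated root hairs and endodermis summed to 270.5 to 335.3, 278.0 to 301.1, 217.1 to 277.3 and 282.8 to 310.0 CPM in the same order. CASP1 weighed most in this sum (mean 127.2 CPM in the control), and its members differed. RHD6 fell from a mean of 31.7 CPM in the control to 10.7 at 1 h. Its calls were lower at all 3 times (log2 -1.58, -1.20 and -0.84, edgeR adjusted p 1.03e-05, 7.45e-05 and 0.000364). COBL9 was lower at the later times (log2 -0.56 at 2 h and -0.70 at 4 h, edgeR adjusted p 0.00415 and 0.000451). EXPA7, CASP1 and CASP2 had no call against the control. The 3 shoot markers, of which LHCB1.1 and STM had at most 4 and 3 counts in a library, never summed to more than 4.15 CPM. In bulk root tips fewer cells of a type and less RNA per cell cannot be told apart, and the part of these shifts in the results for gibberellin genes was not tested.

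The gibberellin genes did not move as a block. GID1B, a receptor, was higher and GA3OX1, a synthesis enzyme, lower at 1 h, and both then moved the other way between 1 h and 2 h. Among the DELLA genes RGL3 was higher at all 3 times, RGA was higher at 2 h and 4 h, GAI was higher at 2 h and had come down again by 4 h, and RGL1 was lower at 2 h and 4 h. The threshold for a call was an adjusted p under 0.05 from quasi-likelihood testing in edgeR, adjusted by Benjamini-Hochberg over all 19733 loci tested. Because the 3 comparisons with the control share its libraries, their values for a gene are not independent of each other.

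At 1 h against the control 3 of 9 tested members were called, 2 higher and 1 lower, where 9.62% of all loci were called, 5.03% higher and 4.59% lower. At 2 h 5 of 9 were called, 4 higher and 1 lower, against 35.0% of all loci, 16.5% higher and 18.5% lower. At 4 h 3 of 9 were called, 2 higher and 1 lower, against 50.3% of all loci, 24.7% higher and 25.6% lower. The share at 4 h was thus under that of all loci. The median absolute log2 fold change of the 9 members was 0.22 at 1 h, 0.37 at 2 h and 0.30 at 4 h, beside 0.13, 0.24 and 0.32 for all loci. Only 1 of 9 was called at 1 h when control replicate 3 was left out, or in a fit with only the groups compared, and 6 of 9 were called at 4 h without control replicate 3. Without control replicate 2, or without any of the 3 DEX 1 h replicates, 2 of 9 were called at 1 h.

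Between the DEX groups no control library takes part. From 1 h to 2 h 4 of 9 members were called, 3 higher and 1 lower, against 31.3% of all loci, 14.9% higher and 16.3% lower. From 1 h to 4 h 6 of 9 were called, 3 higher and 3 lower, against 48.6%, with 24.1% higher and 24.5% lower. From 2 h to 4 h 1 of 9 was called, lower, against 7.34%, with 3.60% higher and 3.73% lower. More members were thus called between 1 h and 2 h than between 2 h and 4 h, and the same held for all loci (31.3% and 7.34%). The difference in number was not tested. With library totals in place of TMM factors, the share of calls over all loci that were higher was 31.6% in place of 47.8% from 1 h to 2 h and 37.7% in place of 49.6% from 1 h to 4 h.

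**Figure D1:**
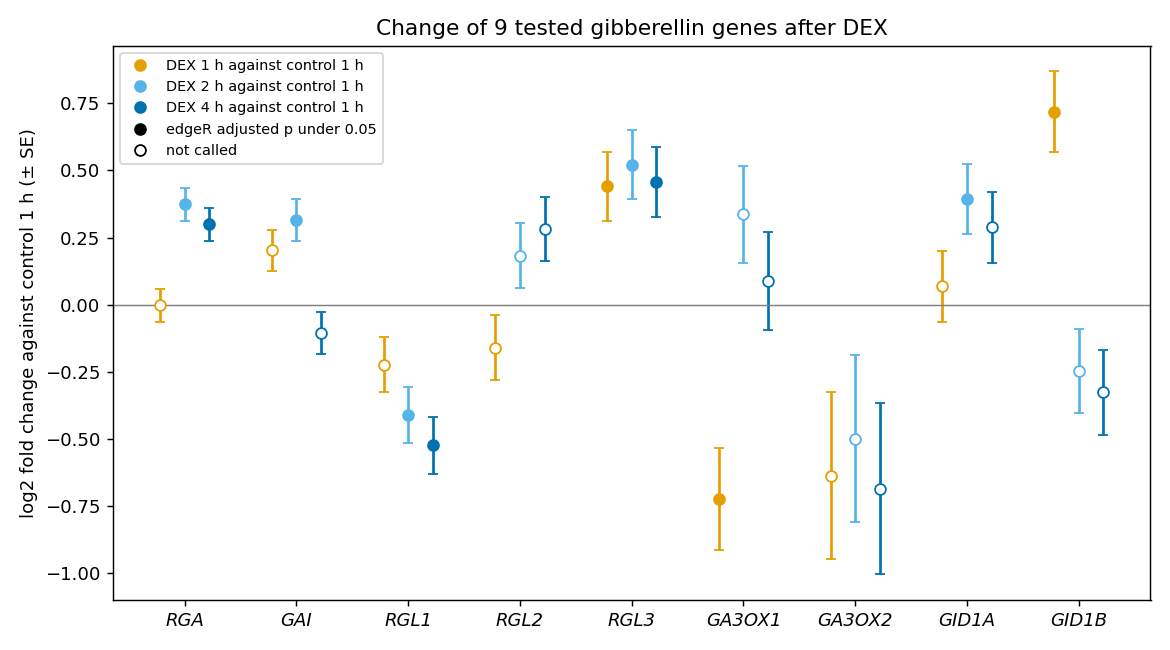
Log2 fold change against the control at 1 h for the 9 tested gibberellin genes, with the genes on the horizontal axis and the change with its standard error on the vertical axis. Filled points passed an edgeR adjusted p of 0.05; the points of GID1B and GA3OX1 at 1 h, at 0.72 and -0.72, lie farthest from 0 among the filled ones.

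DOF proteins bind DNA around the core AAAG, so the 250 bases upstream of each gene's annotated start were searched for AAAG on both strands, where a match on the other strand reads CTTT. In RefSeq's TAIR10.1 annotation 98.0% of 27437 promoters of this length hold at least 1 match, with a median of 4 per promoter. The 10 members held 1 to 7 matches. GID1B, GAI and GA20OX1 held 7, which 13.6% of promoters reach, RGA, RGL1, RGL2, GA3OX1 and GID1A held 6, which 24.3% reach, GA3OX2 held 5, which 39.4% reach, and RGL3 held 1. A match is a run of letters and does not show binding. Upstream sequences are shown for the members with the widest range across groups among the 9 tested, GID1B (chr3:23288993-23289242, plus strand) and GA3OX1 (chr1:5346343-5346592, minus strand), and for the DELLA genes that lay highest and lowest against the control at 4 h, RGL3 (chr5:5766247-5766496, minus strand) and RGL1 (chr1:24747855-24748104, plus strand). They are written 5′ to 3′ along the strand of the gene, and capitals mark AAAG and CTTT.
GID1B: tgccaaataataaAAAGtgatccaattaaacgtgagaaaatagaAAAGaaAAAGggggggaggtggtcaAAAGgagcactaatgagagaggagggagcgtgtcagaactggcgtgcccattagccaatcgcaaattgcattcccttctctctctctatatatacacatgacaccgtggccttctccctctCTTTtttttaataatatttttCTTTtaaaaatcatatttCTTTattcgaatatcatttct
GA3OX1: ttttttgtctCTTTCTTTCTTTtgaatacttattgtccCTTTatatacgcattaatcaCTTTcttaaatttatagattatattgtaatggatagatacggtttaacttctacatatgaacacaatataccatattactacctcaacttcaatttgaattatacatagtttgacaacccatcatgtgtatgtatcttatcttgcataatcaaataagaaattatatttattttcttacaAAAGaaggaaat
RGL3: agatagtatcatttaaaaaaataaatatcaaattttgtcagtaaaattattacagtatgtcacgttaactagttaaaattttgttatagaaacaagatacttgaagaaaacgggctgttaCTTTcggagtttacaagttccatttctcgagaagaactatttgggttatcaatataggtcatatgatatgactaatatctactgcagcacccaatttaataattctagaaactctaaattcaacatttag
RGL1: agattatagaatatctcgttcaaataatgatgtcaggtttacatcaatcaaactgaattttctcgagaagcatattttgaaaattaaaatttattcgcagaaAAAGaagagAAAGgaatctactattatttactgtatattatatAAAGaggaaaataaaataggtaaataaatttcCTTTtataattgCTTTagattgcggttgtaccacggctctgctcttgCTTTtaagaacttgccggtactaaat
RGL3 and RGL1 were called in opposite directions, and their windows hold 1 CTTT and 3 matches on each strand. GA3OX1 has 5 of its 6 matches as CTTT, 3 of them in an unbroken run, and GID1B has 4 as AAAG and 3 as CTTT.

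GID1B (AT3G63010, chr3:23289243-23291486, plus strand) encodes a gibberellin receptor. Its normalized CPM was 34.3, 35.2 and 26.5 in the control libraries, 65.6, 52.5 and 39.8 at 1 h, 27.2, 28.1 and 25.7 at 2 h, and 24.0, 25.8 and 26.8 at 4 h. All DEX 1 h libraries were above all control libraries, while 2 h and 4 h overlapped the control. Means were 32.0 ± 4.76 (SD, n = 3), 52.6 ± 12.9, 27.0 ± 1.21 and 25.5 ± 1.41 CPM. The log2 fold change at 1 h was 0.72 ± 0.15 (SE, edgeR adjusted p 0.00956). At 2 h and 4 h it was -0.25 (edgeR adjusted p 0.250) and -0.33 (0.106), neither of which was called. From 1 h to 2 h the transcript fell by 0.97 on the log2 scale (edgeR adjusted p 0.000851), and the further step to 4 h was not called (-0.08, 0.805). GID1B thus stood highest at 1 h, and the other 3 groups could not be told apart beyond their spread. The DEX 1 h replicates ranged widely: without replicate 1 the 1 h change was 0.53 and was still called. It was not called when only the control and DEX 1 h were fitted (0.73, edgeR adjusted p 0.0639), while at 4 h the lower level was called without control replicate 3 (-0.44, 0.0325) and with only the groups compared (-0.32, 0.0235).

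GID1A (AT3G05120, chr3:1430363-1432844, plus strand), another receptor of the family, was 7.67, 8.51 and 11.4 CPM in the control, 10.5, 8.97 and 9.43 at 1 h, 11.4, 12.2 and 12.7 at 2 h, and 10.7, 11.2 and 11.8 at 4 h. Control replicate 3 lay inside the range of the 4 h group and just above the lowest library at 2 h. The rise at 2 h was called (log2 0.39 ± 0.13, SE, edgeR adjusted p 0.0271), and the changes at 1 h (0.07, 0.815) and 4 h (0.29, 0.0795) were not. No step between DEX groups was called for GID1A, except from 1 h to 2 h with only these groups fitted (0.33, edgeR adjusted p 0.0487). The rise at 2 h missed the threshold with library totals (edgeR adjusted p 0.0628) and when DEX 2 h replicate 2 (0.0690) or 3 (0.0880) or control replicate 1 (0.136) or 2 (0.103) was dropped. Without control replicate 3 the 4 h change was 0.47 and was called (0.00504). Per exon length, GID1B stood at 15.7 ± 2.33 CPM per kb in the control and GID1A at 4.80 ± 1.02. At 1 h these levels were 25.8 ± 6.33 and 5.03 ± 0.408, and at 4 h 12.5 ± 0.690 and 5.86 ± 0.269.

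GA3OX1 (AT1G15550, chr1:5344388-5346342, minus strand) makes bioactive gibberellin in the final step of synthesis. Its CPM was 7.02, 7.21 and 9.39 in the control, 3.93, 5.28 and 5.09 at 1 h, 12.9, 8.42 and 8.45 at 2 h, and 9.39, 8.69 and 7.05 at 4 h. The DEX 1 h libraries lay below every other library of the study, and the 2 h and 4 h libraries overlapped the control. GA3OX1 fell at 1 h by 0.72 ± 0.19 on the log2 scale (SE, edgeR adjusted p 0.0234). From 1 h to 2 h it rose by 1.06 ± 0.19 (edgeR adjusted p 0.000845), and its level at 4 h was still above that at 1 h (0.81 ± 0.19, 0.00254). Against the control it was not called at 2 h (0.34, 0.158) or 4 h (0.09, 0.712), so only the 1 h group stood apart in the order of levels. The fall at 1 h missed the threshold when DEX 1 h replicate 1 (-0.60, edgeR adjusted p 0.0846) or control replicate 3 (-0.58, 0.109) was dropped, but the rise from 1 h to 2 h was called in all 6 fits that each left out 1 library, with changes from 0.82 to 1.17.

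GA3OX2 (AT1G80340, chr1:30200466-30202349, minus strand) carries out the same step and had lower counts, with 21 to 77 counts in a library. Its CPM was 4.51, 2.60 and 4.51 in the control, 2.80, 2.09 and 2.58 at 1 h, 3.78, 3.03 and 1.39 at 2 h, and 3.10, 2.47 and 1.66 at 4 h. Control replicate 2 lay within the range of each DEX group, while the other control libraries were above all 9 DEX libraries. Log2 fold changes were -0.64 ± 0.31, -0.50 ± 0.31 and -0.69 ± 0.32 (SE; edgeR adjusted p 0.237, 0.233 and 0.0868), none of them called. Without control replicate 2 the 4 h change was -0.90 and was called (adjusted p 0.0328). Of the other GA3-oxidases, GA3OX4 (AT1G80330) had at most 1 count in a library, and GA3OX3 likewise.

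GA20OX1 (AT4G25420, chr4:12990851-12992585, minus strand), which acts in the step before the GA3-oxidases, had 4, 5 and 13 counts in the control, 6, 1 and 2 at 1 h, 7, 7 and 7 at 2 h, and 5, 12 and 6 at 4 h. All DEX groups overlapped the control. In a fit without the filter, over 24662 loci, none of its comparisons was called, and the lowest edgeR adjusted p was 0.0514, for 4 h against 1 h. A change in GA20OX1 was thus not called at these counts, which does not show that there was none.

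**Figure D2:**
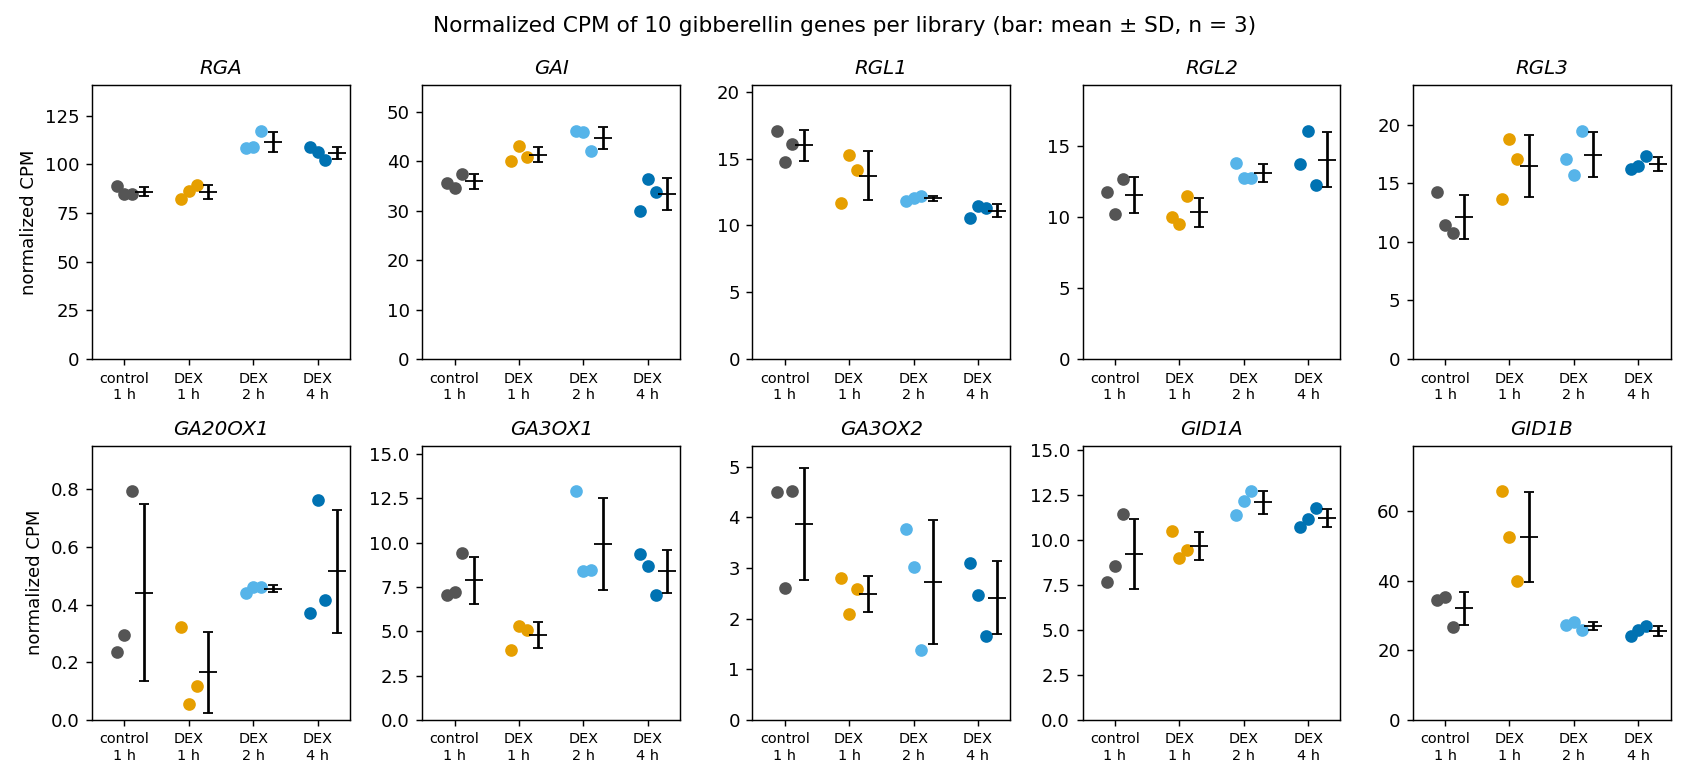
Normalized CPM of each of the 10 genes in each of the 12 libraries, 1 panel per gene and each vertical axis from 0, with points for libraries 1 to 3 of a group and a bar for the mean ± SD. GID1B was 39.8 to 65.6 CPM at 1 h against 26.5 to 35.2 in the control, and GA3OX1 was 3.93 to 5.28 against 7.02 to 9.39.

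RGA (AT2G01570, chr2:255247-257568, minus strand) was the DELLA gene with the highest level in these root tips. Its CPM was 88.8, 84.6 and 84.7 in the control, 82.1, 86.5 and 89.2 at 1 h, 108.4, 108.8 and 117.4 at 2 h, and 109.0, 106.4 and 102.4 at 4 h. Control and 1 h libraries overlapped, and each library at 2 h and 4 h was above all of them. RGA rose by 0.37 ± 0.06 on the log2 scale at 2 h (SE, edgeR adjusted p 0.000318) and by 0.30 ± 0.06 at 4 h (0.000772), and its change at 1 h was -0.00 (0.992). The rise was also called from 1 h to 2 h (0.38, 0.000454), and the step from 2 h to 4 h was not (-0.07, 0.489). The levels of RGA therefore fell into 2 pairs of groups, control with 1 h and 2 h with 4 h. These calls at 2 h and 4 h held in all 12 alternatives, with changes of 0.32 to 0.40 at 2 h and 0.24 to 0.32 at 4 h.

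GAI (AT1G14920, chr1:5148982-5151415, plus strand), which encodes the DELLA protein closest in sequence to RGA, took a different course. Its CPM was 35.6, 34.7 and 37.6 in the control, 40.1, 43.2 and 40.9 at 1 h, 46.3, 45.9 and 42.1 at 2 h, and 29.9, 36.5 and 33.7 at 4 h. Libraries at 1 h and 2 h were all above the control, and those at 4 h overlapped it. The change was called at 2 h (log2 0.32 ± 0.08, SE, edgeR adjusted p 0.00520) and not at 1 h (0.20, 0.118) or 4 h (-0.10, 0.284). From 2 h to 4 h GAI fell by 0.42 ± 0.08 (edgeR adjusted p 0.00497), and it was the sole member called in that step. It was also lower at 4 h than at 1 h (-0.31, 0.00405), whereas RGA was higher over the same span (0.30, 0.000830). The fall from 2 h to 4 h was called in all 12 alternatives, with changes from -0.49 to -0.35.

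RGL1 (AT1G66350, chr1:24748105-24750186, plus strand) was the DELLA gene that was lower. Its CPM was 17.1, 14.8 and 16.1 in the control, 11.7, 15.2 and 14.2 at 1 h, 11.8, 12.03 and 12.2 at 2 h, and 10.6, 11.4 and 11.3 at 4 h. Libraries at 2 h and 4 h were all below the control, while 1 h overlapped it. RGL1 fell by 0.41 ± 0.11 on the log2 scale at 2 h (SE, edgeR adjusted p 0.00664) and by 0.52 ± 0.11 at 4 h (0.000681), and was not called at 1 h (-0.22, 0.202). Neither single step was called (-0.19 from 1 h to 2 h, adjusted p 0.191, and -0.11 from 2 h to 4 h, 0.563). The change from 1 h to 4 h was called (-0.30, 0.0290), but not by DESeq2 (adjusted p 0.0528), by edgeR with only these groups (0.0693), or by edgeR without DEX 1 h replicate 2 (0.149) or 3 (0.0604) or DEX 4 h replicate 1 (0.0933) or 3 (0.0531).

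RGL3 (AT5G17490, chr5:5763989-5766246, minus strand), a DELLA gene known for its link to jasmonate signalling, was higher at all 3 times. Its CPM was 14.2, 11.4 and 10.7 in the control, 13.6, 18.8 and 17.0 at 1 h, 17.1, 15.7 and 19.5 at 2 h, and 16.2, 16.4 and 17.3 at 4 h. DEX 1 h replicate 1 lay inside the control range, and all libraries at 2 h and 4 h were above it. RGL3 rose by 0.44 ± 0.13, 0.52 ± 0.13 and 0.46 ± 0.13 on the log2 scale (SE; edgeR adjusted p 0.0384, 0.00547 and 0.00788). No step between DEX groups was called, with changes from -0.06 to 0.08, so the control was the group that stood apart. The rise at 1 h missed the threshold when DEX 1 h replicate 2 (edgeR adjusted p 0.179) or 3 (0.0692) or control replicate 2 (0.139) or 3 (0.151) was dropped, and with only these groups fitted (0.102). The calls at 2 h and 4 h held in all 12 alternatives.

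RGL2 (AT3G03450, chr3:819337-821652, minus strand), best known as a repressor of seed germination, was 11.7, 10.2 and 12.7 CPM in the control, 9.95, 9.52 and 11.5 at 1 h, 13.8, 12.7 and 12.7 at 2 h, and 13.7, 16.1 and 12.2 at 4 h. The libraries at 1 h and 4 h overlapped the control, and the lowest at 2 h was level with the highest control library. No comparison with the control was called, at log2 -0.16, 0.18 and 0.28 (edgeR adjusted p 0.480, 0.251 and 0.0586). Among DEX groups RGL2 rose from 1 h to 4 h by 0.44 ± 0.12 (SE, edgeR adjusted p 0.00614). Its rise from 1 h to 2 h (0.34, 0.0385) missed the threshold with library totals (0.0969), by DESeq2 (0.0589), and when any of DEX 1 h replicate 1 (0.105) or 2 (0.137) or DEX 2 h replicate 1 (0.117), 2 (0.0694) or 3 (0.0721) was dropped. The 4 h change against the control was called without DEX 4 h replicate 3 (0.37, 0.0255) and without control replicate 3 (0.36, 0.0371).

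Per exon length the 5 DELLA genes kept RGA first and GAI next in every group. RGA stood at 37.1 ± 1.02 CPM per kb (SD, n = 3) in the control and 45.6 ± 1.42 at 4 h, and GAI at 14.8 ± 0.601 and 13.7 ± 1.36. RGL1 was next in the control at 7.68 ± 0.558 CPM per kb, with RGL3 at 5.37 ± 0.820 and RGL2 at 4.97 ± 0.548. At 4 h RGL3 stood at 7.38 ± 0.270, RGL2 at 6.04 ± 0.833 and RGL1 at 5.34 ± 0.224. By group means RGL1 had thus passed from the third place to the last. The spreads of RGL1 and RGL2 at 4 h overlapped, and their order was not tested. The summed level of the 5 genes was 69.9 ± 2.60 CPM per kb among control libraries and 72.3 ± 3.97, 85.6 ± 2.05 and 78.1 ± 2.17 after DEX for 1 h, 2 h and 4 h. RGA made up 52.2% to 54.2% of that sum in the control libraries and 56.9% to 60.6% in the 4 h libraries, and GAI on average 21.2% and 17.6%. These sums describe transcripts, and DELLA protein was not measured.

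**Figure D3:**
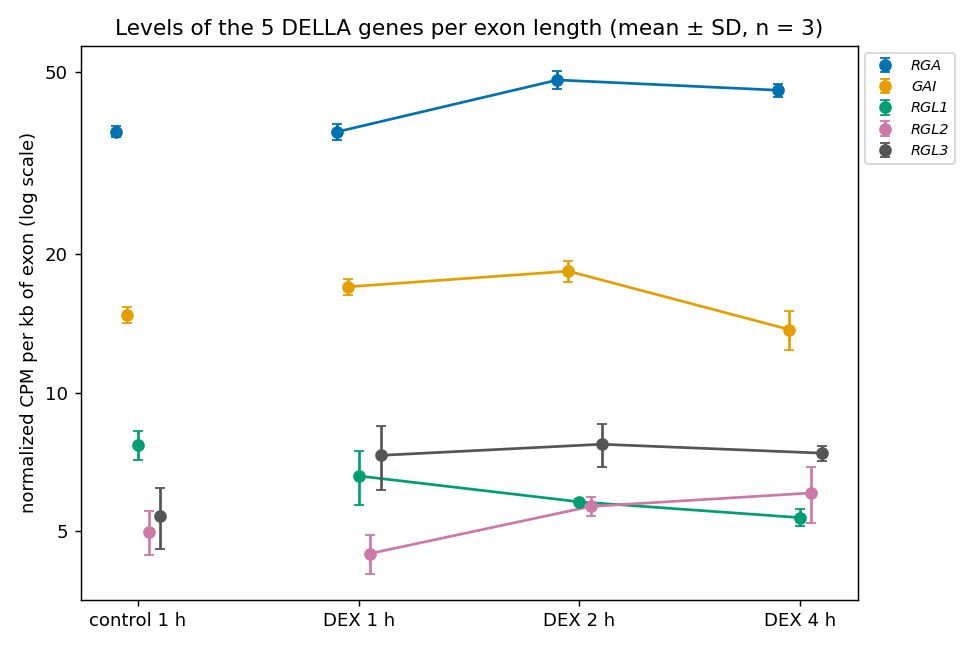
Normalized CPM per kb of exon of the 5 DELLA genes by group, on a log axis, as mean ± SD of 3 libraries, with lines joining the DEX times. RGL1 passes from 7.68 in the control to 5.34 at 4 h while RGL3 passes from 5.37 to 7.38.

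The genes nearest in pattern to GA3OX1 and GID1B, the members with the widest range of group means among the 9 tested (1.02 and 1.01 on the log2 scale), were sought among 17487 other tested loci whose mean log2 CPM was 1 or more. Likeness was the root mean square difference of the 4 centred group means of log2 CPM, which rests on 4 groups and is a description. Nearest to GID1B were ARF4, an auxin response factor (0.043), AT3G14780, annotated as callose synthase (0.046), and ABCG25, an exporter of abscisic acid (0.051). Nearest to GA3OX1 were AT2G01010 (0.039), AT5G19340, an uncharacterized protein (0.045), and AT1G14200, a RING/U-box protein (0.053). AT2G01010 is annotated as 18S ribosomal RNA, its deposited counts were not whole in any library, and the part of residual ribosomal RNA in the course of GA3OX1 was not tested.

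Of 48 further genes of the gibberellin pathway, chosen with earlier results of these data known, 29 were tested. At 1 h 1 was called higher and 6 lower, at 2 h 3 higher and 10 lower, and at 4 h 7 higher and 9 lower. Over all loci 5.03% were higher and 4.59% lower at 1 h, 16.5% and 18.5% at 2 h, and 24.7% and 25.6% at 4 h, so the 16 of 29 called at 4 h were near the 50.3% of all loci. Their median log2 fold change was -0.04, -0.11 and -0.22, beside -0.01, -0.01 and 0.00 for all loci. The 19 genes not tested had at most 6 counts in any library.

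Early synthesis turns geranylgeranyl diphosphate into the precursors that GA20-oxidases act on. Of its 4 tested genes KO/GA3 (ent-kaurene oxidase) fell at 1 h and 2 h, from 29.01 ± 2.67 CPM (SD, n = 3) to 21.9 ± 2.21 and 22.0 ± 1.74 (log2 -0.40 at both times, edgeR adjusted p 0.0164 and 0.00632). KAO1, an ent-kaurenoic acid oxidase, fell at 2 h and 4 h (-0.39 and -0.34, 0.00716 and 0.0107), and it overlaps AT1G05170 on the same strand. No gene of this step was called higher against the control, beside 5.03%, 16.5% and 24.7% of all loci at 1 h, 2 h and 4 h. Of the 4 tested 1, 2 and 1 were called lower at these times, beside 4.59%, 18.5% and 25.6% of all loci. At 4 h against 1 h, 2 of 4 were higher, beside 24.1% of all loci. For KO/GA3 the change at 1 h missed the threshold when control replicate 1 (edgeR adjusted p 0.0848) or 2 (0.0577) or DEX 1 h replicate 2 (0.0632) was dropped, and with only these groups fitted (0.0507).

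The other GA20-oxidases were scarce. GA20OX3 had 15, 15 and 30 counts in the control, 1, 3 and 5 at 1 h, 26, 18 and 27 at 2 h, and 28, 25 and 32 at 4 h, so the 1 h libraries lay below all others. Its log2 fold change was -2.78 ± 0.49 at 1 h (SE, edgeR adjusted p 0.00131), and 0.36 and 0.70 at 2 h and 4 h were not called. This is the direction of GA3OX1 at the same time. GA20OX5 had 14, 21 and 12 counts in the control, 16, 30 and 13 at 1 h, and 1 to 3 at 2 h and 4 h, with log2 fold changes of -3.02 and -2.94 at 2 h and 4 h (edgeR adjusted p 0.00111 and 0.000616) that rest on 5 counts in each group. GA20OX2 had 3, 2 and 13 counts in the control and 19, 18 and 14 at 4 h, where it rose by 1.68 ± 0.51 (SE, edgeR adjusted p 0.0118). That rise missed the threshold without control replicate 1 (edgeR adjusted p 0.0574) or 2 (0.0603), and without control replicate 3 it was 2.92.

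Among enzymes that inactivate gibberellin the called genes were lower at the later times. Of 6 tested 3 were lower and 0 higher at 2 h, and 3 were lower and 0 higher at 4 h, where 1 was higher and 1 lower at 1 h. Over all loci 35.0% were called at 2 h and 50.3% at 4 h, so the count at 4 h was at the background share. GA2OX6, a GA2-oxidase, was 20.5, 16.7 and 12.1 CPM in the control, 30.2, 35.7 and 23.1 at 1 h, 7.99, 11.3 and 8.65 at 2 h, and 6.88, 8.06 and 10.2 at 4 h. It rose at 1 h (log2 0.85 ± 0.21, SE, edgeR adjusted p 0.0229). It was lower at 2 h (-0.82 ± 0.23, 0.0158) and 4 h (-0.97 ± 0.23, 0.00453), with all libraries at both times below the control. ELA2, a cytochrome P450 that oxidizes gibberellins, fell from 7.86 ± 0.485 CPM (SD, n = 3) in the control to 4.62 ± 0.561, 4.04 ± 0.503 and 3.22 ± 0.286. GA2OX8 fell by 1.40 on the log2 scale at 2 h (edgeR adjusted p 0.0152), with 22 to 32 counts in the control and 6 to 14 at 2 h.
GA2OX6 missed the threshold at 1 h when DEX 1 h replicate 1 (edgeR adjusted p 0.0729) or 2 (0.0758) or control replicate 2 (0.0740) or 3 (0.0562) was dropped, and with only these groups fitted (0.0539). GA2OX8 missed it at 2 h when DEX 2 h replicate 2 (0.0685) or 3 (0.0588) or control replicate 1 (0.0613) was dropped.

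Among genes that act on the receptor and on DELLA proteins, none of 5 was called higher against the control at any time. At 1 h, 2 h and 4 h 1, 3 and 2 of the 5 were called lower. Over all loci 5.03%, 16.5% and 24.7% were higher against the control at these times, and 4.59%, 18.5% and 25.6% lower. At 4 h against 1 h, 2 of the 5 were higher and 2 lower, beside 24.1% and 24.5% of all loci. SPY, an enzyme that adds O-fucose to DELLA proteins, fell from 52.0 ± 2.95 CPM (SD, n = 3) in the control to 39.7 ± 3.29 at 2 h and 38.0 ± 1.77 at 4 h (log2 -0.39 and -0.45, edgeR adjusted p 0.00116 and 0.000146). SEC, which adds O-GlcNAc to the same proteins, was lower at 4 h (-0.25, 0.00519). SNE, a homologue of the F-box gene SLY1, was lower at 1 h and 2 h (-1.05 and -0.87, 0.0167 and 0.0171), with 38 to 52 counts in the control and 18 to 28 in those DEX libraries. SNE missed the threshold at 1 h when DEX 1 h replicate 2 (edgeR adjusted p 0.0713) or control replicate 3 (0.0860) was dropped. At 2 h it missed it when DEX 2 h replicate 1 (0.0740) or 2 (0.0662) or control replicate 3 (0.0784) was dropped.

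Of DELLA partners and targets 6 were tested. Against the control 0 were higher and 2 lower at 1 h, 1 and 1 at 2 h, and 2 and 2 at 4 h. Over all loci 5.03%, 16.5% and 24.7% were higher at these times, and 4.59%, 18.5% and 25.6% lower. SCL3 was not called against the control at any time (log2 -0.04, -0.06 and -0.03, edgeR adjusted p 0.855, 0.637 and 0.791). MGP/IDD3, a zinc finger protein of the SHR and SCR network, was lower at all 3 times. Its CPM was 26.7, 30.0 and 30.6 in the control, 10.5, 12.7 and 12.6 at 1 h, 21.3, 22.2 and 20.1 at 2 h, and 17.3, 17.5 and 16.9 at 4 h, with no overlap with the control. Log2 fold changes were -1.28 ± 0.09, -0.45 ± 0.09 and -0.76 ± 0.09 (SE; edgeR adjusted p 9.28e-08, 0.00100 and 5.45e-06), and its counts were whole in 6 of 12 libraries. JKD/IDD10, a related factor, was lower at 1 h (-0.34, edgeR adjusted p 0.00724). XERICO, a RING-H2 gene known as a DELLA target, was higher at 2 h and 4 h (0.63 and 0.82, 0.0219 and 0.00280). XERICO missed the threshold at 2 h when DEX 2 h replicate 3 (edgeR adjusted p 0.0898) or control replicate 1 (0.0750) was dropped.

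GASA genes encode small cysteine-rich peptides, several of which are known to be induced by gibberellin. Of 14, 5 were tested, of which 0 were called at 1 h, 2 were higher at 2 h and 4 were higher at 4 h, and none was lower, beside 16.5% of all loci higher at 2 h and 24.7% at 4 h. GASA4 was 317.2, 323.0 and 367.5 CPM in the control, 379.2, 409.3 and 449.0 at 2 h, and 583.7, 525.5 and 613.7 at 4 h, all above the control at both times. Its log2 fold change was 0.30 ± 0.08 at 2 h (SE, edgeR adjusted p 0.0120) and 0.77 ± 0.08 at 4 h (2.65e-06). GASA7 was higher at 2 h (0.53, edgeR adjusted p 0.00112) and at 4 h (0.74, 2.68e-05). At 4 h GASA1 (0.62, edgeR adjusted p 0.000456) and GASA10, with 5 to 16 counts in a library (1.12, 0.0146), were higher as well. GASA4 missed the threshold at 2 h when DEX 2 h replicate 3 (edgeR adjusted p 0.0747) or control replicate 1 (0.0622) or 2 (0.0576) was dropped. GASA10 missed it without control replicate 2 (0.0698) and by DESeq2 (0.0596).

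**Figure D4:**
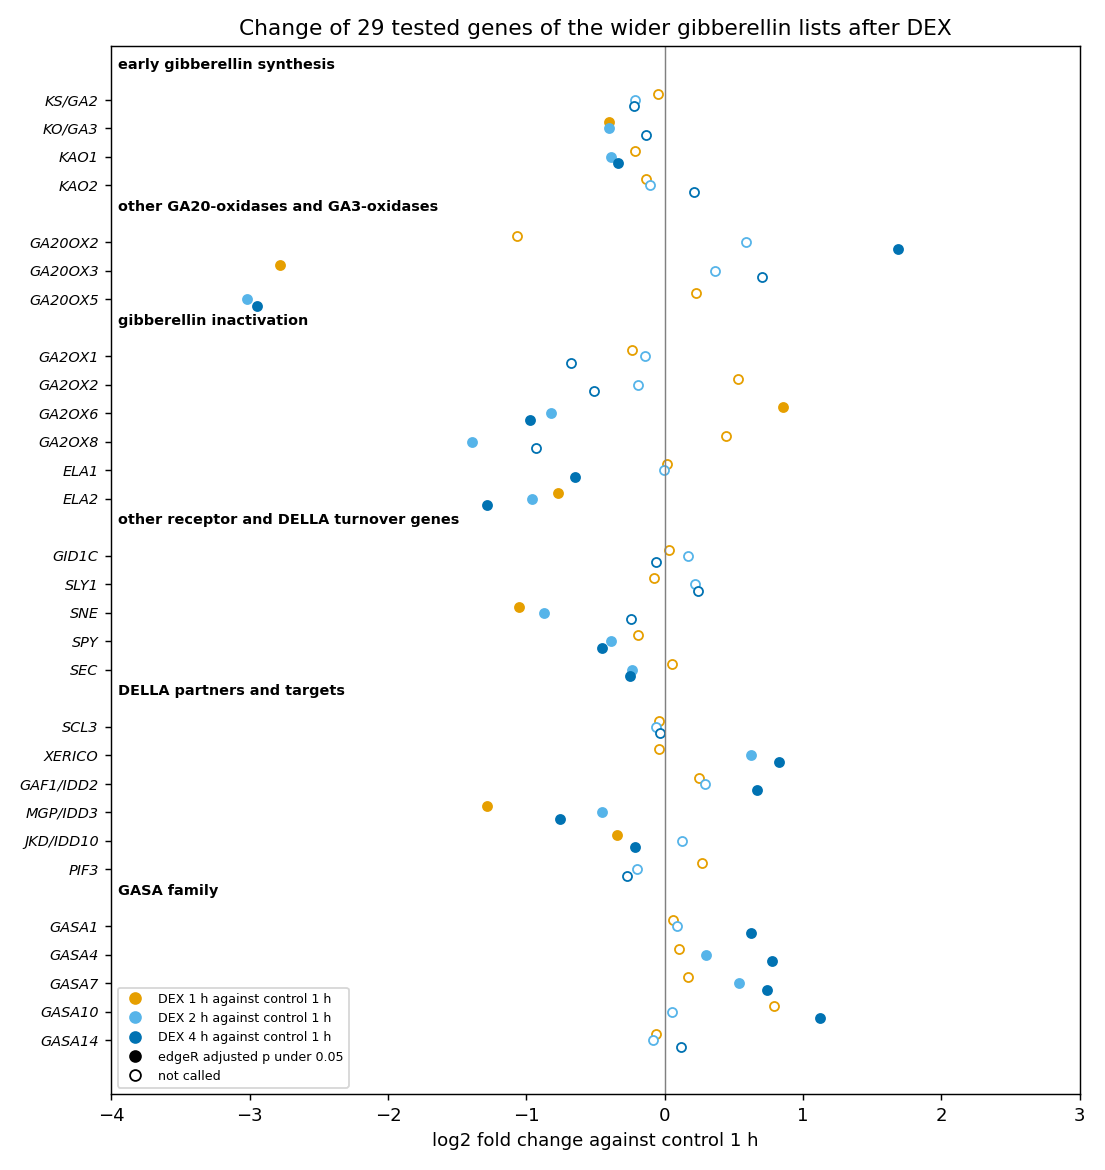
Log2 fold change against the control at 1 h (horizontal axis) of the 29 tested genes of the wider lists (vertical axis), with 3 points per gene for DEX 1 h, 2 h and 4 h, filled where the edgeR adjusted p was under 0.05. All 4 filled GASA points at 4 h lie to the right of 0, and GA20OX3 at 1 h lies at -2.78.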

How the data were processed

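RNA was sequenced from 12 samples of root meristem with TruSeq Stranded mRNA libraries, per the labels' protocols. The authors deposited values per locus that are not scaled for depth, of which 82.2% to 83.3% in a library were whole. The deposited values were taken for estimated counts, although HTSeq, which gives whole counts, is among the tools named, and how the other values arose is not given in the sources used here. The submitters' processing notes name CASAVA, GSNAP, HTSeq and edgeR and the build TAIR10, without roles; the strand setting is not given in the sources used here. Counts were rounded. Loci passing filterByExpr (minimum count 10, total 15) numbered 19733 and held 99.95% of counts. After TMM scaling 1 quasi-likelihood model with robust estimation and group as its only term was fitted to all 12 libraries in edgeR 4.0.16 (R 4.3.3). A run on counts simulated from this model held 2-fold changes at DEX 4 h against the control only, so it did not cover smaller changes. The common biological coefficient of variation was 8.8%. A standard error is the absolute log2 fold change over the square root of F. CPM are normalized by TMM-scaled totals. Exon lengths, symbols and upstream sequence came from RefSeq TAIR10.1, in which 28009 of 28775 loci were matched. Members and lists were chosen with earlier results of these data known. All 10 members are named. Of the wider lists, genes called against the control are named where their change was among the 2 largest of their list. Some other genes of these lists, among them SCL3 and GASA1, are named beside them. Alternatives were RLE factors, library totals, no filter, DESeq2 1.42.0, only the groups compared, a replicate block, and leaving out each library. The repeat numbers did not pair the samples. No replicate pair agreed within sampling noise.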

Additional observations from a re-analysis of the deposited data

Results flagged for a closer look

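The following genes changed between DEX 1 h and DEX 4 h by edgeR's quasi-likelihood test (adjusted p under 0.05), which means that their effects against the shared control differed between these times. Of 26 tested genes that were members or named by the rule for the wider lists 20 did so, beside 48.6% of all loci. Of the 26, 17 were named for large called changes against the control, so this count cannot be read against that share. Among the 10 gibberellin loci the log2 changes were 0.30 for RGA, -0.31 for GAI, -0.30 for RGL1, 0.44 for RGL2, 0.81 for GA3OX1 and -1.04 for GID1B. In synthesis they were 0.27 for KO/GA3, 2.75 for GA20OX2, 3.48 for GA20OX3 and -3.17 for GA20OX5. These last values rest on few counts, with 2 to 4 per library for GA20OX2 and 1 to 5 for GA20OX3 at 1 h, and 1 to 3 for GA20OX5 at 4 h. In inactivation they were -1.83 for GA2OX6, -1.38 for GA2OX8 and -0.52 for ELA2. DELLA turnover genes gave 0.81 for SNE, -0.26 for SPY and -0.30 for SEC. Partners and targets gave 0.86 for XERICO and 0.53 for MGP/IDD3. In the GASA family the changes were 0.67 for GASA4 and 0.57 for GASA7. Groups of 3 were not searched for single deviating libraries.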

How the results depend on the processing

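Each comparison was recomputed under 12 alternatives, 6 of them leaving out 1 library. Of 22 calls of gibberellin loci 16 were kept in every alternative, 6 were lost at least once and 0 changed sign. Of the 29 calls by which other genes were named 9 were lost at least once. Further calls of these genes, and those of GASA1 and of the markers, were not followed in this way. At 1 h against the control, fitting only these groups gave 1 member and 1234 loci called. Leaving out each library in turn gave 1 to 3 members and 1194 to 2303 loci at 1 h, the lowest without control replicate 2, 3 to 6 members at 4 h, and 395 to 1439 loci from 2 h to 4 h (395, 685 and 769 without DEX 2 h replicate 1, 2 and 3, and 573 and 610 without DEX 4 h replicate 1 and 3); the cause was not tested beyond the smaller number of libraries.

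Changes of sign occurred in values that were not called. RGA at 1 h was 0.0021 with RLE factors, 0.026 with library totals, 0.0019 in DESeq2 and 0.0056 with only these groups, and -0.025 to 0.030 with a library left out. RGL3 from 1 h to 4 h was -0.067 with library totals and -0.10 to 0.12 with a library left out. With a library left out, GID1A at 1 h was -0.047 to 0.25. From 1 h to 2 h RGL3 was -0.041 to 0.19 and GA3OX2 -0.17 to 0.45, and from 1 h to 4 h GA3OX2 was -0.26 to 0.16. From 2 h to 4 h RGL2 was -0.014 to 0.19, RGL3 -0.13 to 0.023 and GA3OX2 -0.50 to 0.12.

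Deviations of libraries with the same repeat number correlated at -0.108 to 0.149, so the numbers were not taken as pairs. With a replicate block 2 members were called at 1 h, since RGL3 had a log2 fold change of 0.44 with an edgeR adjusted p of 0.0503, and the block changed no other call of the 95 results. Counts of 1 to 13 for GA20OX1 and 21 to 77 for GA3OX2 limited what could be detected. P-values measure the spread between biological repeats of pooled root tips.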
